A study of Arabidopsis thaliana with 46 samples.

Results

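The 8 genes described here respond to cold, drought and salt in Arabidopsis thaliana: COR15A, COR15B, COR47, LTI30, STZ, DI19, XERICO and DI21. They were chosen by name, with earlier results of these data known. Each was read by 1 probe set, so 8 of the 13513 probe sets annotated to a single gene were used. Those 13513 cover 13350 genes in all, out of 22810 probe sets on the array. All 8 passed the filter on low values. RNA from seedling shoots was measured on 46 arrays in 16 groups, 14 groups of 3 arrays and 2 groups of 2.

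The study asked what the transcription factor WRKY1 does to the transcriptome under changes of light and nitrogen. Wild-type Col-0 plants were compared with SALK lines described as wrky1 mutants; such lines carry a T-DNA insertion in all cells, and each is a single line. All plants were harvested at 14 days, after growth in long days (16 h light of 50 µmol m-2 s-1, 8 h dark, 22 °C). The harvest time is given as 2 h after light for all groups. In the steady condition, on full medium, Col-0 was compared with SALK_016954, SALK_136009 and SALK_070989. The other 6 conditions held Col-0 and SALK_070989 alone. In the nitrogen experiment, plants raised on 1 mM KNO3 spent their last 2 h either on a nitrogen-rich plate (N-rich: 20 mM NH4NO3 plus 20 mM KNO3) or on a plate that held 20 mM KCl and no nitrogen (N-absent). For the light experiment, foil was put around the plates at day 13 and the plants were harvested in darkness (dark); controls kept the normal cycle (light). The combined experiment crossed darkness with nitrogen (dark N-absent and dark N-rich); the labels give neither its media nor how long its treatments lasted, and its 2 Col-0 groups hold 2 arrays each. Whether replicates were separate cultures, and how many seedlings each pooled, is not stated, so the spread behind each p-value may be technical.

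Plants meet cold and water loss with overlapping sets of genes. In the cold, CBF transcription factors bind the promoters of COR (cold-regulated) genes, while drought and salt act largely through the hormone abscisic acid. Many of the proteins made are hydrophilic and protect membranes and enzymes as cells lose water; dehydrins and other late embryogenesis abundant (LEA) proteins belong here, and many LEA proteins are best known from drying seeds. COR15A and COR15B are small chloroplast proteins that protect membranes during freezing, and they are neighbouring genes on chromosome 2. COR47 and LTI30 are dehydrins, and each lies beside another dehydrin gene, ERD10 and XERO1 respectively. STZ, also called ZAT10, and DI19 are zinc finger proteins, and STZ acts as a repressor of transcription. XERICO is a small RING-H2 protein whose overproduction raises abscisic acid. DI21 is a drought-induced protein of the LEA family.

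Values are GCRMA log2 signals, on which a difference of 1 is a doubling; levels are compared between groups for 1 probe set at a time and never between genes. The lowest value in the table is 2.23, and 26.4% of all values lie within 0.01 of it, so where a group sits there its difference from another can only be understated. Array medians ran from 4.28 to 4.67 and the mean correlation of an array with its own group from 0.981 to 0.994. The GAPDH 3′ minus 5′ signal, a sign of RNA quality, was 3.02 in SALK_070989 steady replicate 3 and 2.91 in Col-0 dark N-absent replicate 1, against 1.79 to 2.64 in the other 44 arrays. The WRKY1 probe set read 7.56 in Col-0 steady and 2.26, 4.22 and 2.57 in SALK_016954, SALK_136009 and SALK_070989. Over the 7 shared conditions its group means were 2.25 to 2.67 in SALK_070989 and 6.65 to 7.73 in Col-0. Of 8 green shoot marker genes 3 were measured, and the Rubisco activase gene RCA had group means between 11.02 and 14.02. Of 8 root marker genes 2 had a probe set: PYK10, abundant in roots, had group means between 10.61 and 12.17 in these shoots, and the root hair expansin gene EXPA7 lay at or near the lowest value in 14 groups. The shoots were sampled whole, so fewer cells of a type and less RNA per cell cannot be told apart.

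The 8 genes followed several different patterns across the conditions. LTI30 showed the clearest step: it lay between 10.84 and 12.15 in the 12 arrays of the nitrogen experiment and between 11.05 and 12.25 in the 10 arrays of the combined experiment. In the 12 steady arrays it lay between 6.29 and 8.13, and it was 6.93 to 7.36 in the 6 light arrays and 5.45 to 6.24 in the 6 dark arrays. The step of 3.38 between SALK_136009 steady and Col-0 N-absent was the widest between neighbours in the order of its 16 group means, and no array crossed it. STZ had the same division, at 6.42 to 8.90 in the nitrogen arrays and 6.77 to 8.30 in the combined arrays, against 2.45 to 4.87 in all the others. Its widest gap, 1.89, lay between SALK_070989 dark and Col-0 N-absent.

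**Figure D1:**
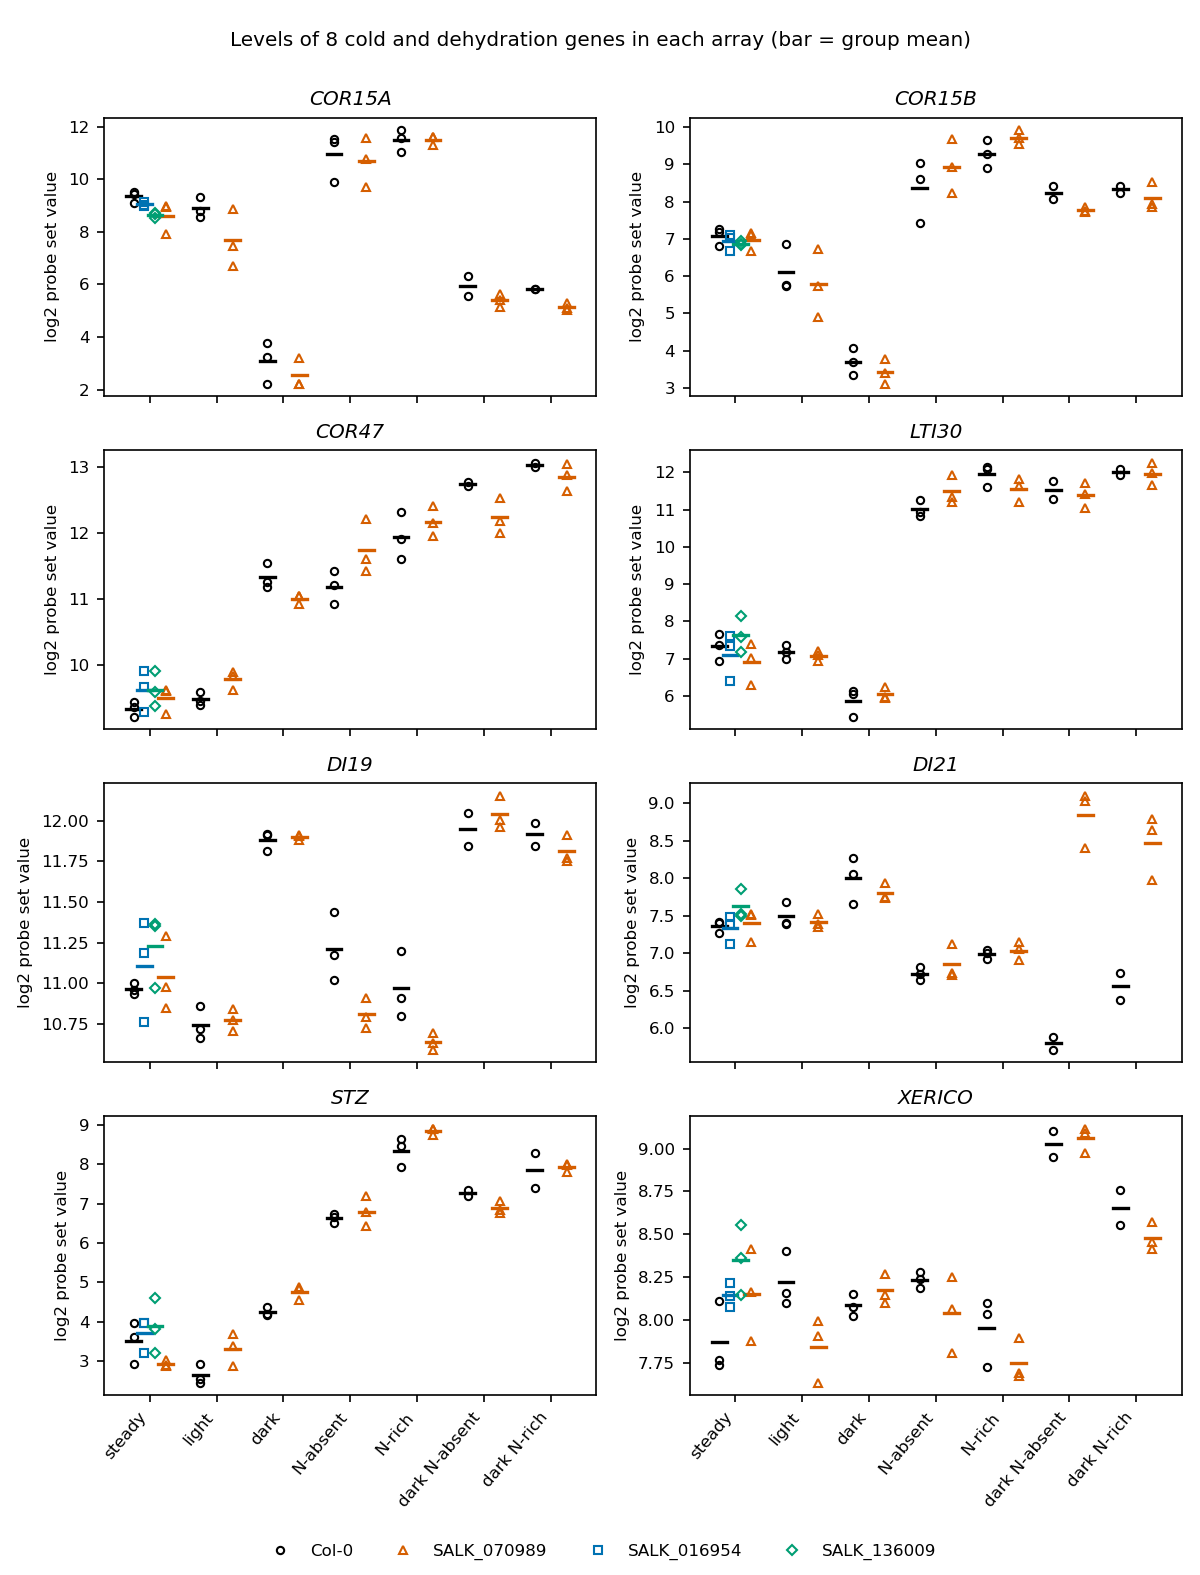
Levels of the 8 genes on the 46 arrays, as GCRMA log2 signal (vertical axis, scaled separately in each panel), by condition (horizontal axis) and genotype (colour). Points are arrays and bars are group means. LTI30 and STZ separate the nitrogen and combined experiments from the rest, COR15A is lowest in the dark groups, and DI21 separates the genotypes in the 2 combined conditions.

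COR47 was lowest in the steady and light arrays, at 9.23 to 9.92, intermediate in the dark arrays at 10.94 to 11.54, and highest in the combined arrays at 12.01 to 13.06. The nitrogen arrays, at 10.93 to 12.41, overlapped both of the latter sets. COR15A covered the widest range, with group means from 2.56 in SALK_070989 dark to 11.49 in both N-rich groups. COR15B had group means from 3.43 in SALK_070989 dark to 9.72 in SALK_070989 N-rich. DI19 and XERICO moved least: group means of DI19 spanned 10.64 to 12.04 and those of XERICO 7.75 to 9.06. In the order of group means most neighbours had overlapping arrays, and of 15 neighbouring pairs the number without overlap was 5 for STZ, 4 for COR15A, 2 each for COR15B, COR47, LTI30 and DI19, and 1 each for DI21 and XERICO.

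The steps between experiments were not tested, because medium, transfer to a fresh plate and experiment cannot be told apart. As descriptions, the Col-0 mean of LTI30 was 3.68 higher in N-absent than in steady plants and that of STZ 3.14 higher. COR47 was 1.84, COR15A 1.59 and COR15B 1.28 higher in the same comparison, with no overlap between the arrays for any of these 5 genes. N-absent plants had spent their last 2 h on a medium without nitrogen, after growth on 1 mM KNO3. Col-0 N-rich means were further above steady, by 4.62 for LTI30, 4.84 for STZ and 2.60 for COR47. COR15A was 2.14 and COR15B 2.19 above steady there, and the part of nitrogen in these steps was not tested. DI21 went the other way and was 0.64 lower in Col-0 N-absent than in Col-0 steady plants, also without overlap.

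Darkness changed nearly all of these genes in the light experiment, at a time when it changed most of the transcriptome. In Col-0 7 of 8 passed the test (limma, Benjamini-Hochberg adjusted p under 0.05), against 76.3% of all probe sets tested, with 4 higher (background 38.1%) and 3 lower (38.2%). In SALK_070989 all 8 passed, against 74.3%, with 5 higher (37.5%) and 3 lower (36.7%). These shares are near the background, so the counts say nothing particular about cold and dehydration genes. Green shoot markers fell in the same arrays: RCA was 2.64 lower in darkness in Col-0, and the part of such shifts in the results below was not tested.

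Both chloroplast protein genes fell in darkness, COR15A far more than COR15B on their own scales. COR15A read 8.58, 8.80 and 9.34 in the Col-0 light arrays and 3.26, 2.23 and 3.76 in the Col-0 dark arrays. The groups were far apart, and replicate 2 of the dark group was at the lowest value in the table. The fall was 5.82 ± 0.43 (SE), or 56.6-fold, with an adjusted p of 1.415e-14 (limma); because of that array it is understated. In SALK_070989 the light arrays read 6.70, 7.47 and 8.88 and the dark arrays 3.21, 2.23 and 2.23. The light arrays were more scattered here, 2 of 3 dark arrays were at the lowest value, and the groups did not overlap. COR15A fell by 5.13 ± 0.43 in this line (adjusted p = 5.131e-13, limma).

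COR15B read 5.77, 5.73 and 6.86 in Col-0 light and 4.07, 3.69 and 3.34 in Col-0 dark. Every dark array was below every light array, and COR15B fell by 2.42 ± 0.36, or 5.36-fold (adjusted p = 1.649e-07, limma). The fall in SALK_070989 was 2.37 ± 0.36 (adjusted p = 2.798e-07, limma).

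The neighbouring genes parted in the combined experiment, where darkness was joined by the nitrogen treatments. COR15A read 5.55 and 6.31 in Col-0 dark N-absent and 5.81 and 5.83 in Col-0 dark N-rich. These arrays were above all Col-0 dark arrays and below all Col-0 arrays of the nitrogen experiment. COR15B read 8.07 and 8.41 in dark N-absent and 8.43 and 8.23 in dark N-rich. COR15B was thus inside the range of the Col-0 N-absent arrays, which read 9.03, 8.62 and 7.43. The Col-0 mean in dark N-absent minus that in N-absent was -5.01 for COR15A and -0.12 for COR15B, and the same difference for N-rich was -5.67 and -0.94. In SALK_070989 the 4 corresponding differences were -5.29 and -1.16 without nitrogen, and -6.35 and -1.61 with it. Dark N-absent minus dark was 2.85 for COR15A and 4.54 for COR15B in Col-0. These differences join separate experiments and were not tested.

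**Figure D2:**
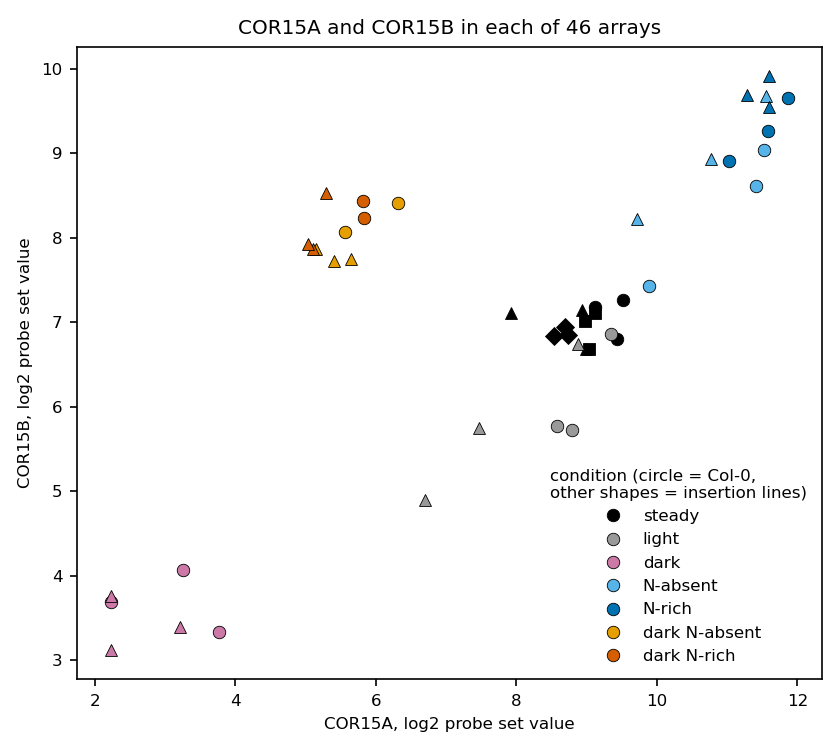
COR15A (horizontal axis) against COR15B (vertical axis) on the 46 arrays, both as GCRMA log2 signal, coloured by condition. The dark arrays lie low on both axes, and the arrays of the combined experiment lie apart, between 7.72 and 8.53 for COR15B but only between 5.03 and 6.31 for COR15A.

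Over the 16 group means the correlation of COR15A and COR15B was 0.676, and that of their deviations from the group means over the 46 arrays was 0.692. These points share arrays and scaling, and the values are descriptions. Within groups, replicate 3 was low for both genes in Col-0 N-absent (COR15A 9.88 against 11.53 and 11.42) and in SALK_070989 N-absent (9.72 against 10.77 and 11.56). In both light groups replicate 3 was the highest array for both genes.

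The dehydrin genes responded to darkness in opposite directions. COR47 read 9.41, 9.46 and 9.60 in Col-0 light and 11.18, 11.27 and 11.54 in Col-0 dark. The arrays within each group lay close together and the groups did not overlap; COR47 rose by 1.84 ± 0.18, or 3.58-fold (adjusted p = 3.315e-11, limma). In SALK_070989 it rose by 1.22 ± 0.18 (adjusted p = 3.265e-07, limma). LTI30 read 6.99, 7.18 and 7.36 in Col-0 light and 6.14, 5.45 and 6.04 in Col-0 dark. All dark arrays were below the light arrays, and LTI30 fell by 1.3 ± 0.28 (adjusted p = 8.107e-05, limma). The fall in SALK_070989 was 1.03 ± 0.28 (adjusted p = 0.001255, limma).

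In the combined experiment LTI30 was as high in darkness as it was in the nitrogen experiment in light. Its Col-0 mean was 5.65 higher in dark N-absent than in dark plants. Against N-absent plants in light it was 0.51 higher, and dark N-rich against N-rich gave 0.07. COR47 was higher again in the combined plants: by 1.55 in dark N-absent against N-absent and by 1.09 in dark N-rich against N-rich in Col-0, without overlap. In SALK_070989 the same differences were 0.50, with overlapping arrays, and 0.68, without overlap. None of these differences was tested.

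Among the regulators, STZ and DI19 rose in darkness in both genotypes. STZ read 2.93, 2.45 and 2.53 in Col-0 light and 4.19, 4.17 and 4.38 in Col-0 dark. The light arrays were close to the lowest value in the table and the dark arrays clearly above them. STZ rose by 1.61 ± 0.27 in Col-0 (adjusted p = 1.828e-06, limma) and by 1.44 ± 0.27 in SALK_070989 (adjusted p = 1.239e-05, limma). DI19 read 10.71, 10.86 and 10.66 in Col-0 light and 11.92, 11.81 and 11.92 in Col-0 dark. It rose by 1.14 ± 0.13, or 2.20-fold (adjusted p = 5.143e-10, limma), and by 1.13 ± 0.13 in SALK_070989. All dark and combined groups of DI19 lay above all groups kept in light, from 11.81 ± 0.09 (SD, n = 3) upward against 11.23 ± 0.22 (n = 3) and below.

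XERICO and DI21 changed little in darkness. XERICO differed by -0.14 ± 0.13 in Col-0 (adjusted p = 0.3507, limma; 95% interval -0.40 to 0.13) and rose by 0.33 ± 0.13 in SALK_070989 (adjusted p = 0.02302). The latter call was lost without dark replicate 3 (0.28, adjusted p = 0.08634) or without light replicate 3 (0.22, adjusted p = 0.1611); over all its alternatives the adjusted p ran from 0.0136 to 0.1611. DI21 rose by 0.50 ± 0.17 in Col-0 (adjusted p = 0.00925, limma) although the groups overlapped, and by 0.39 ± 0.17 in SALK_070989 (adjusted p = 0.04449). Without Col-0 dark replicate 2 the first was 0.37 (adjusted p = 0.08303; range 0.001607 to 0.08303). The second lost its call without any 1 of 5 of its 6 arrays, and its adjusted p ran from 0.00696 to 0.1432.

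**Figure D3:**
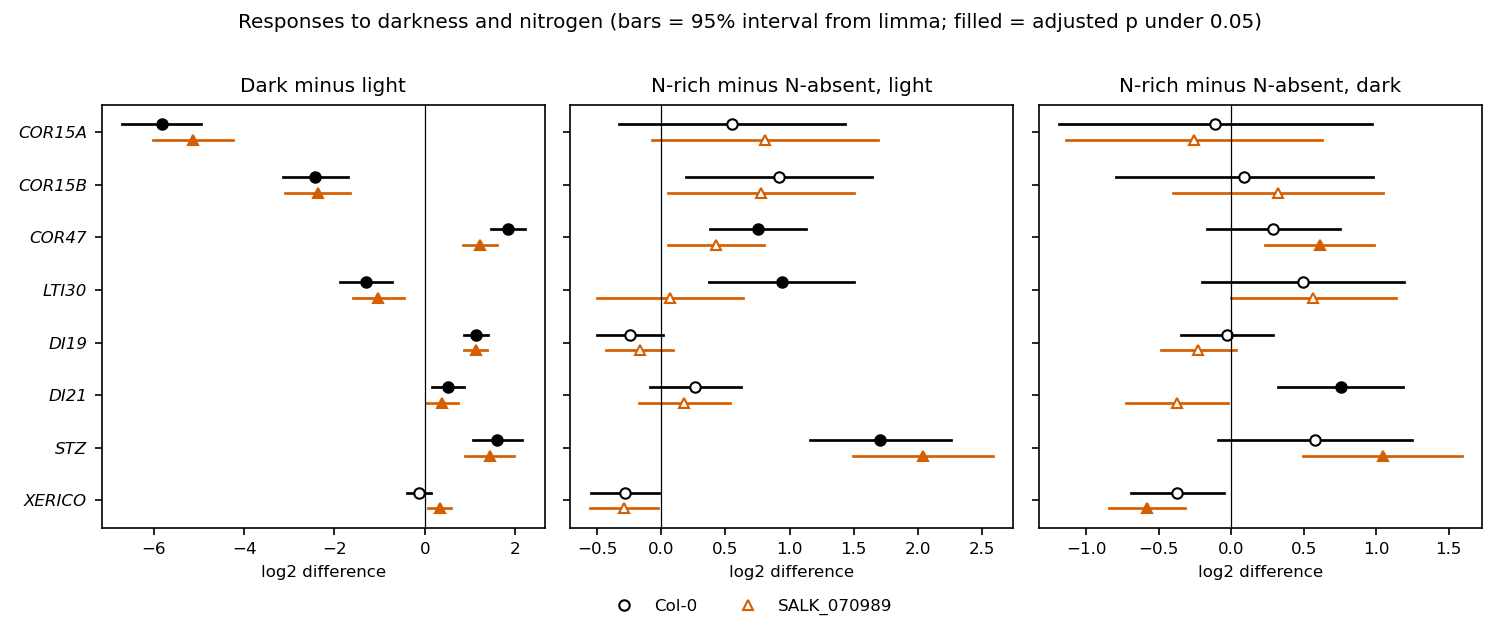
Differences of the 8 genes between treatments in Col-0 and in SALK_070989 (log2, dark minus light or N-rich minus N-absent), with 95% intervals from the fit; filled points passed the test. COR15A and COR15B fall and COR47, DI19 and STZ rise in darkness in both genotypes, and STZ is higher with nitrogen, past the test in both genotypes in light and in SALK_070989 in darkness.

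In the light STZ was higher in N-rich than in N-absent plants in both genotypes, and the dehydrin genes were higher in Col-0. The N-rich plate held ammonium nitrate and potassium nitrate, and the N-absent plate potassium chloride. Nitrogen, chloride and the amount of salt thus differed together, and the part of each was not tested. A response to nitrogen here and below means N-rich against N-absent. In Col-0 3 of 8 genes passed the test, against 25.8% of all probe sets, and all 3 were higher in N-rich plants (background 11.6%). In SALK_070989 1 of 8 passed, against 18.8%. STZ read 6.66, 6.74 and 6.51 in Col-0 N-absent and 8.48, 8.63 and 7.92 in Col-0 N-rich. The groups were well separated, and STZ rose by 1.71 ± 0.27, or 3.27-fold (adjusted p = 8.886e-06, limma). In SALK_070989 it read 6.79, 7.19 and 6.42 without nitrogen and 8.89, 8.90 and 8.73 with it. Again no arrays overlapped, and the rise was 2.04 ± 0.27, or 4.12-fold (adjusted p = 4.821e-07, limma).

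LTI30 read 11.25, 10.84 and 10.94 in Col-0 N-absent and 12.15, 11.60 and 12.10 in Col-0 N-rich. It rose by 0.94 ± 0.28 (adjusted p = 0.01151, limma), a call lost without N-rich replicate 1 (0.84, adjusted p = 0.0545; range over alternatives 0.008998 to 0.0545). COR47 read 11.43, 11.21 and 10.93 in Col-0 N-absent and 12.32, 11.61 and 11.91 in Col-0 N-rich. These groups did not overlap, and COR47 rose by 0.75 ± 0.18 (adjusted p = 0.00228, limma). In SALK_070989 the differences were 0.07 ± 0.28 for LTI30 and 0.43 ± 0.18 for COR47, neither past the threshold (adjusted p = 0.9215 and 0.1104).

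COR15A and COR15B did not pass in either genotype, with N-rich minus N-absent at 0.55 and 0.81 for COR15A and 0.92 and 0.78 for COR15B in Col-0 and SALK_070989. Adjusted p for these ran from 0.05494 for COR15B in Col-0 to 0.3853 for COR15A in Col-0. Replicate 3 of both N-absent groups was the lowest array for each gene, as given above. Same-numbered arrays of Col-0 N-rich and N-absent deviated together. With the replicate number as a block, COR15B in Col-0 passed at the same 0.92 (adjusted p = 0.03915, limma, range over alternatives 0.01713 to 0.4439). DI19, XERICO and DI21 also missed the threshold, with differences between -0.29 and 0.27.

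In darkness the nitrogen comparison called 1 of 8 genes in Col-0, against 20.1% of all probe sets, and 3 of 8 in SALK_070989, against 28.6%. STZ read 6.77, 7.06 and 6.83 in SALK_070989 dark N-absent and 7.81, 8.00 and 7.98 in dark N-rich. It rose without overlap by 1.04 ± 0.27 (adjusted p = 0.003241, limma). In Col-0 it read 7.35 and 7.19 without nitrogen and 7.39 and 8.30 with it, a difference of 0.58 ± 0.33 (adjusted p = 0.2393). XERICO moved against STZ and fell by 0.58 ± 0.13 in SALK_070989 (adjusted p = 0.0007807, limma), from 9.11, 8.98 and 9.09 to 8.57, 8.41 and 8.45. In Col-0 XERICO differed by -0.37 ± 0.16 (adjusted p = 0.09884), also without overlap between the 4 arrays. COR47 rose by 0.61 ± 0.18 in SALK_070989 (adjusted p = 0.0115, limma), a call that was lost without dark N-absent replicate 1 (0.49, adjusted p = 0.08065) or dark N-rich replicate 2 (0.52, adjusted p = 0.07191; range over alternatives 0.005098 to 0.08065). The gene called in Col-0 was DI21, described below.

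XERICO had its 4 highest group means in the combined experiment, from 8.48 to 9.06. Dark N-absent exceeded N-absent by 0.79 in Col-0 and by 1.02 in SALK_070989, without overlap and untested.

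DI21 was the gene that differed most between the genotypes. Its 6 arrays of SALK_070989 in the combined experiment read from 7.98 to 9.09, and the other 40 arrays from 5.72 to 8.28. In dark N-absent DI21 read 5.89 and 5.72 in Col-0 and 9.09, 8.40 and 9.03 in SALK_070989. The Col-0 arrays were the lowest of all 46 for this gene, and 2 of the 3 SALK_070989 arrays were the highest. SALK_070989 was higher by 3.04 ± 0.19, or 8.20-fold (adjusted p = 8.172e-15, limma). This was 1 of 8 genes called, against 20.1% of all probe sets in this comparison, and DI21 ranked 52 of 14288 probe sets for the size of its increase.

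In dark N-rich DI21 read 6.38 and 6.73 in Col-0 and 8.79, 7.98 and 8.64 in SALK_070989. The groups again lay apart, by 1.91 ± 0.19, or 3.75-fold (adjusted p = 4.527e-09, limma), and DI21 was again the 1 gene of 8 called, against 5.19% of all probe sets. With any 1 array left out the difference stayed between 2.91 and 3.26 in dark N-absent and between 1.73 and 2.15 in dark N-rich. With the compared groups fitted alone, the dark N-rich call was lost at the same 1.91 (adjusted p = 0.07086; range over alternatives 1.571e-10 to 0.07086). Col-0 dark N-absent replicate 1, the array with the high GAPDH value, read 5.89 beside 5.72 in its fellow replicate.

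**Figure D4:**
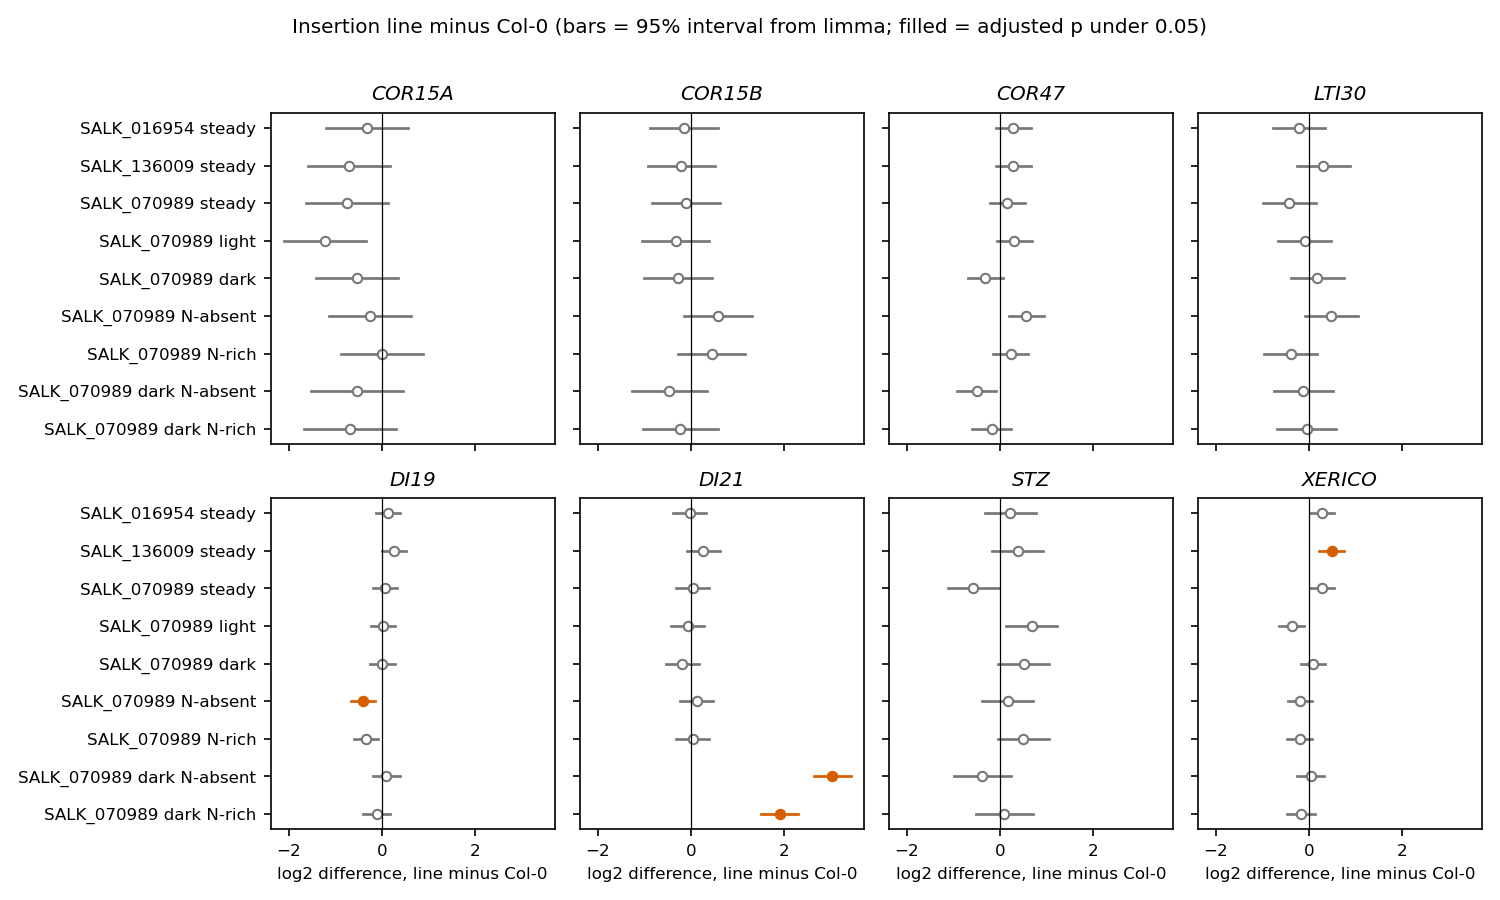
Differences between the insertion lines and Col-0 for the 8 genes (log2, line minus Col-0), with 95% intervals from the fit. SALK_070989 is shown in 7 conditions, and SALK_016954 and SALK_136009 in the steady condition. Filled points passed the test. DI21 in SALK_070989 stands at 3.04 and 1.91 in the 2 combined conditions. The other filled points are DI19 in SALK_070989 N-absent, at -0.40, and XERICO in SALK_136009 steady, at 0.48.

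In the other 5 conditions the difference of DI21 between SALK_070989 and Col-0 lay between -0.19 and 0.13, and none passed the test. Set against the plants of the light experiment, the genotypes moved apart. The Col-0 mean was 2.19 lower in dark N-absent than in dark plants and 1.44 lower in dark N-rich than in dark plants. The SALK_070989 mean was 1.03 and 0.66 higher in the same comparisons, which were not tested.

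The difference of DI21 between nitrogen treatments in darkness had opposite signs in Col-0 and SALK_070989. In Col-0 DI21 rose by 0.75 ± 0.21 from dark N-absent to dark N-rich (adjusted p = 0.009375, limma). That call rests on 2 arrays a group and was lost without dark N-absent replicate 2 (0.67, adjusted p = 0.08151) or dark N-rich replicate 2 (0.58, adjusted p = 0.1335; range over alternatives 0.005312 to 0.1335). In SALK_070989 DI21 differed by -0.37 ± 0.17 (adjusted p = 0.1079). The interaction was -1.13 ± 0.28 (adjusted p = 0.006792, limma), the 1 call among the 8 genes, against 9.54% of all probe sets.

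The 8 genes were taken as cold and dehydration genes outside the seed programme, and genes of the seed lists were read beside DI21. Of the 8 genes on the seed lists with a probe set of their own, LEA18 and AtLEA4-1 passed the filter solely through the SALK_070989 combined groups, so their values are given without a test. Their means in SALK_070989 minus Col-0 were 7.06 and 6.51 in dark N-absent and 5.34 and 3.997 in dark N-rich. OLEO3 did not pass the filter. Of the other 5, 3 were called higher and none lower in each condition, against 20.1% and 5.19% of all probe sets called. LEA4-5, another LEA gene, was higher by 5.80 and 4.29, AT2G46140 by 0.64 and 0.93, and M10 by 0.76 and 0.93. Several of these genes were at the lowest value in Col-0, which makes their differences lower bounds. The mean of the 8 seed-list genes was 5.29 to 6.23 in the 6 SALK_070989 combined arrays and 3.42 to 4.42 in the other 40. This mean includes LEA18 and AtLEA4-1, whose group means reached 9.37 and 8.74 there and at most 2.99 and 3.00 elsewhere. M17, M10, OLEO3 and AT2G44060 had their highest group means in other groups, so the mean is no measure of the list as a whole. The oleosin gene OLEO3, which marks oil bodies of seeds, read 2.24 to 2.62 and the LEA gene M17 read 2.25 to 2.27 in those 6 arrays, both at or near the lowest value. Some other markers moved in the same arrays. EXPA7, which did not pass the filter, averaged 2.74 in SALK_070989 dark N-absent and 3.07 in dark N-rich, against 2.23 in both Col-0 groups. PYK10 reached a group mean of 11.89 in these SALK_070989 groups and 12.17 in other groups. In dark N-absent the green shoot genes RCA, PRK and SBPASE were higher in SALK_070989 by 0.49, 0.87 and 0.54. In dark N-rich the mean of these green shoot genes overlapped, at 9.50 to 9.76 in SALK_070989 and 9.58 to 9.75 in Col-0. The part of all these genes' RNA in the DI21 difference was not tested.

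**Figure D5:**
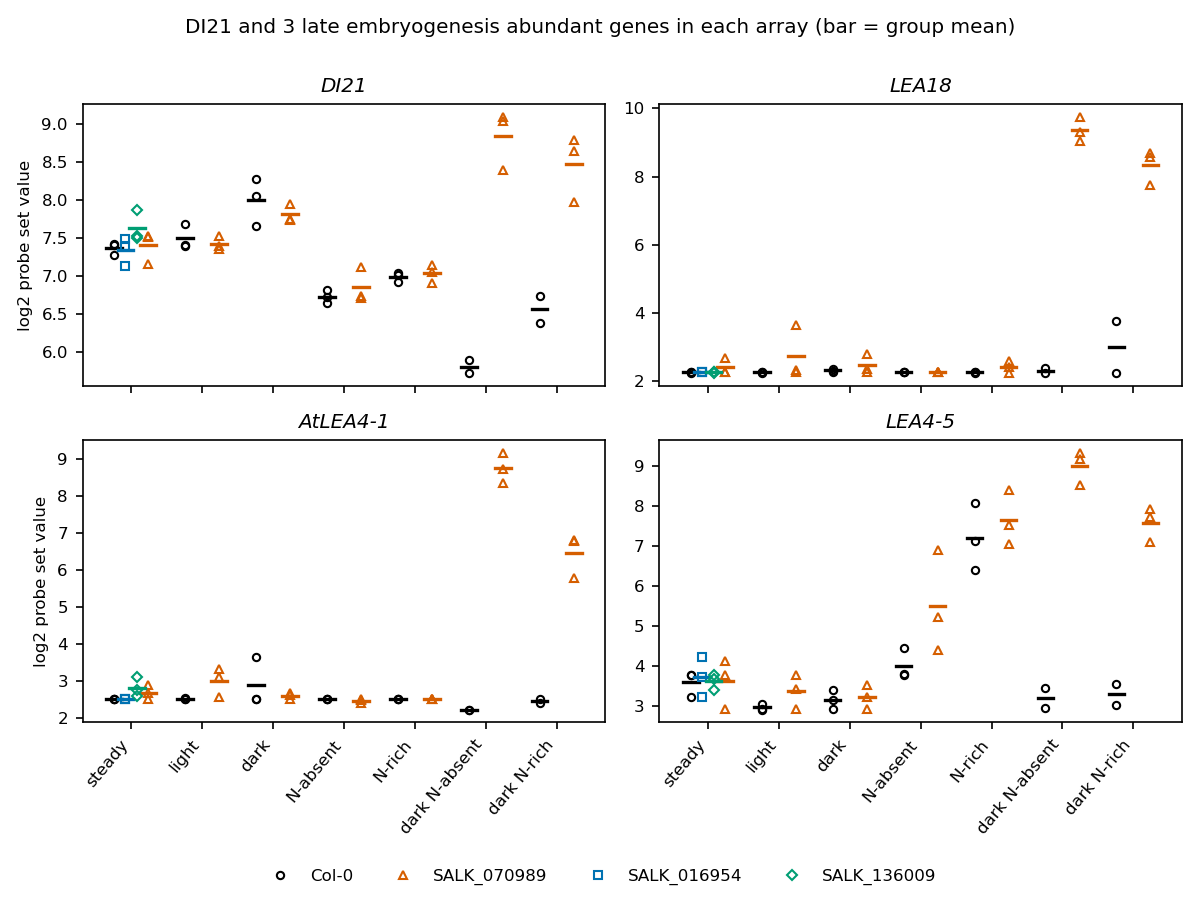
DI21 and the LEA genes LEA18, AtLEA4-1 and LEA4-5 on the 46 arrays, as GCRMA log2 signal by condition (horizontal axis) and genotype (colour). The vertical axis is scaled separately in each panel. Points are arrays and bars are group means. DI21 read 7.98 to 9.09 in the 6 SALK_070989 arrays of the combined experiment and 5.72 to 8.28 in the other 40. LEA18 and AtLEA4-1 passed the filter solely through those SALK_070989 groups and carry no test. Their group means elsewhere were at most 2.99 and 3.00.

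The remaining 7 genes showed few differences between the WRKY1 lines and Col-0. In steady plants no gene was called in SALK_016954 (against 3.28% of all probe sets) or in SALK_070989 (12.5%), and 1 was called in SALK_136009 (8.48%). In SALK_016954 1 gene and in SALK_070989 2 genes had an unadjusted p under 0.05. The call was XERICO, at 7.77, 8.11 and 7.74 in Col-0 and 8.36, 8.55 and 8.14 in SALK_136009. The groups did not overlap, and the difference was 0.48 ± 0.13 (adjusted p = 0.01522, limma). It lost its call without Col-0 replicate 1 (0.43, adjusted p = 0.07471), without Col-0 replicate 3 (0.41, adjusted p = 0.07985) or without SALK_136009 replicate 2 (0.38, adjusted p = 0.1417). Its adjusted p over the alternatives ran from 0.005998 to 0.154. XERICO was 0.27 and 0.28 higher in SALK_016954 and SALK_070989, with overlapping arrays and adjusted p of 0.3068 and 0.1702.

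In N-absent plants DI19 was the 1 gene called in SALK_070989 (against 8.02%). It read 11.17, 11.02 and 11.44 in Col-0 and 10.72, 10.91 and 10.79 in SALK_070989. The groups did not overlap, and DI19 was lower by -0.40 ± 0.13 (adjusted p = 0.04331, limma). This call was fragile: it was lost without any 1 of 5 of the 6 arrays, among them Col-0 replicate 3, without which it was -0.29, and its adjusted p ran from 0.01833 to 0.2809. Same-numbered arrays of these groups deviated together, and with the replicate number as a block DI19 did not pass (adjusted p = 0.06092). In N-rich plants no gene was called (2.75%), and DI19 differed by -0.33 ± 0.13 (adjusted p = 0.156, limma), the 1 gene with an unadjusted p under 0.05. COR47 differed by 0.56 ± 0.18 in N-absent (adjusted p = 0.05352) and passed there with the block (adjusted p = 0.04436; range over alternatives 0.01984 to 0.3672). It differed by -0.50 ± 0.21 in dark N-absent (adjusted p = 0.08795), and its arrays did not overlap in either condition.

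In the light experiment no gene was called between the genotypes, in light (5.61%) or in darkness (2.6%). In light 3 genes had an unadjusted p under 0.05 and in darkness none. COR15A in light read 8.58, 8.80 and 9.34 in Col-0 and 6.70, 7.47 and 8.88 in SALK_070989, a difference of -1.22 ± 0.43 (adjusted p = 0.0998, limma). The arrays overlapped because of SALK_070989 replicate 3.

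Averaged over the 7 conditions that both genotypes share, 2 of 8 genes were called, against 21.9% of all probe sets. COR15A was lower in SALK_070989 by -0.57 ± 0.17 (adjusted p = 0.01443, limma), or 1.48-fold. It was lower in 6 of 7 conditions, by up to 1.22 on the log2 scale in size, and the difference in N-rich plants was 0.00. COR15A was not called in any single condition. The call of the average held under each of 46 alternatives, with values from -0.65 to -0.50. In dark plants COR15A was limited by the lowest value in the table. DI21 was higher by 0.70 ± 0.07 (adjusted p = 1.02e-09, limma), an average over 5 conditions near 0 and the 2 combined conditions given above.

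Except for DI21, the treatment responses of the 8 genes could not be shown to differ between Col-0 and SALK_070989. No gene was called in the interaction of nitrogen with genotype in light (against 0.182% of all probe sets) or of darkness with genotype (2.22%). LTI30 had an unadjusted p under 0.05 in the first, at -0.87 with a 95% interval from -1.67 to -0.07 (adjusted p = 0.4346, limma). COR47 and XERICO did so in the second, at -0.62 (-1.15 to -0.10; adjusted p = 0.2479) and 0.46 (0.09 to 0.83; adjusted p = 0.2127). The interval for COR15A in darkness was wide, from -0.55 to 1.94. The nitrogen responses of COR47 and LTI30, called in Col-0 and not in SALK_070989, were thus not shown to differ by this adjusted test.

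Other genes of cold and dehydration responses were few on the annotated array. Of a list of 51, 6 had a probe set of their own, and a search of gene names added 4, of which 9 in all were measured: COR27, COR28, DI19-2, DI19-4, DI19-5, DI19-6, SRC2, AT1G54410 and a dehydrin named LEA. In darkness 5 of 9 rose and 1 fell in each genotype, against 76.3% and 74.3% of all probe sets called, which is near the share in the list. The median difference was 1.04 in Col-0 and 0.72 in SALK_070989, beside 0.0014 over all probe sets in Col-0. COR27 and COR28, cold-regulated genes that also act in the circadian clock, were at the lowest value in light. They were at least 7.45 and 7.09 higher in Col-0 dark, and at least 7.14 and 6.04 higher in SALK_070989 dark. DI19-2, a relative of DI19, rose by 1.93 ± 0.12 in Col-0, and DI19-5 fell by 1.48 ± 0.14. DI19 and its relatives thus did not all move one way in darkness.

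In the combined experiment the dehydrin gene LEA was read above the lowest value in SALK_070989. It passed the filter solely through SALK_070989 dark N-absent, so its values carry no test. It stood at 2.23 in both arrays of Col-0 dark N-absent and at 7.32, 6.71 and 6.85 in SALK_070989, which is at least 4.73 higher. In dark N-rich the difference was at least 1.55. Of the other 8 genes 2 were higher in SALK_070989 in dark N-absent and none lower, against 20.1% of all probe sets called: COR27 by 1.01 and COR28 by 1.15. In dark N-rich COR28 was the 1 gene of these 8 called, again higher in SALK_070989, against 5.19% of all probe sets. COR28 was also the gene called in dark plants of the light experiment (against 2.6%). There it was lower in SALK_070989 by -1.06 ± 0.22 (adjusted p = 0.003454, limma). SRC2 rose with nitrogen in darkness by 0.62 in Col-0 and 0.94 in SALK_070989, and by 0.45 in SALK_070989 in light.

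Each gene's pattern over the 16 group means was set against those of 7660 other genes, as a description of points that share arrays and scaling. LTI30 was most like NDB2 (r = 0.990), a mitochondrial NAD(P)H dehydrogenase gene, and AT5G13200 (0.989). COR47 was most like AT1G10090 (0.987) and BIK1 (0.985), a kinase gene of immune signalling. STZ was most like AT5G25930 (0.986) and AT1G19020 (0.985), COR15A like AT1G75900 (0.983) and AT5G45650 (0.982), and COR15B like AT2G46170 (0.982) and AT5G48540 (0.976). For DI19 the closest were AT3G14100 (0.971) and AT5G07960 (0.966), and for XERICO AT1G78780 (0.924) and AT5G59000 (0.922). DI21 had no gene above 0.9, its closest being AT5G14450 (0.858) and AT2G21820 (0.828). The number of genes above 0.9 was 221 for COR47, 204 for LTI30, 170 for DI19, 146 for STZ, 131 for COR15A, 80 for COR15B and 9 for XERICO. Among the 8 genes themselves the closest pair was LTI30 and STZ (0.919), followed by COR47 and STZ (0.914), while COR15A and DI19 ran opposite (-0.84).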

How the data were processed

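Shoot RNA was measured on 46 Affymetrix ATH1 arrays. The log2 signals had been normalized by the authors before deposit; the submitters' processing notes name GCRMA and give no version. The notes do not name the scale; log2 is read from the values, which run from 2.23 to 14.63. Gene names came from the platform annotation (13513 probe sets with 1 gene, 503 with several) and were matched by gene identifier to a RefSeq table of TAIR10.1 (13436 matched). Groups came from the sample labels.

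Means of the 16 groups were estimated from the 46 arrays together with limma 3.58.1 (R 4.3.3), with empirical Bayes moderation (30 residual and 4.966 prior degrees of freedom). The fit used the 14288 of 22746 non-control probe sets whose highest group mean exceeded 4. P-values were adjusted by Benjamini-Hochberg over all of these within each of 19 comparisons (10 of genotype, 6 of treatment, 3 interactions), at a threshold of 0.05. The main fit held group means only and used no pairing of arrays. Every correlation of same-numbered deviations exceeded 0.1 in Col-0 N-rich and N-absent (0.126 to 0.155) and in N-absent of both genotypes (0.136 to 0.485). The replicate block, used as an alternative, added terms for the replicate numbers within every experiment. The script was tested on simulated data. The number of arrays limits the precision.

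The 8 genes and the lists were chosen with earlier results of these data known; the genes found by name were added after the annotation was seen. Other pathway genes were named as the 3 largest called differences in a comparison, and similar genes as the 2 highest correlations per gene. A promoter motif search was planned and not run, since no sequence was used here. Alternatives were no filter, a filter at 6, quantile normalization, robust and trended moderation, a replicate block, a fit to the compared groups alone, and each array left out.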

Additional observations from a re-analysis of the deposited data

Results flagged for a closer look

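The response of DI21 to nitrogen in darkness differed between Col-0 and SALK_070989, by a test of the difference itself: N-rich minus N-absent in SALK_070989 minus the same in Col-0 was -1.13 ± 0.28 (SE; adjusted p = 0.006792, limma). DI21 was 0.75 higher with nitrogen in Col-0, from 2 arrays a group, and differed by -0.37 in SALK_070989, from 3. With 1 array left out the difference stayed between -1.35 and -0.88, and it missed the threshold when the fit held the 4 groups concerned alone (adjusted p = 0.1359; range over alternatives 0.0008329 to 0.1359).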

How the results depend on the processing

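Of 30 differences called among the 8 genes, 19 were called under every alternative run, and none changed direction. The number of genes called was within 1.5 times of the main number in the alternatives not given here. For SALK_070989 against Col-0 in N-absent it went from 1 to 0 with no filter and with the compared groups alone, and to 2 with a filter at 6 and with robust, trended moderation. Quantile normalization gave 2 in place of 1 for SALK_070989 against Col-0 in dark N-absent and for nitrogen in darkness in Col-0. With the compared groups alone the number was 0 in place of 1 for SALK_136009 steady, SALK_070989 dark N-rich, nitrogen in darkness in Col-0 and nitrogen by genotype in darkness; those fits hold fewer arrays. DI21 in dark N-rich then had an adjusted p of 0.07086 at 1.91, and COR47 with nitrogen in Col-0 had 0.0809.

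With 1 array left out the number of genes called ran from 0 to 1 for SALK_136009 steady, SALK_070989 steady, N-absent and light, and for nitrogen in darkness in Col-0. It ran from 1 to 2 for dark N-absent, from 2 to 4 for nitrogen in light in Col-0 and in darkness in SALK_070989, from 1 to 3 for nitrogen in light in SALK_070989, and from 6 to 7 and 6 to 8 for darkness in Col-0 and SALK_070989. It stayed at 2 for the mean of 7 conditions, at 1 for dark N-rich and the DI21 interaction, and at 0 elsewhere.

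Same-numbered arrays deviated together (every correlation above 0.1) in 2 of 19 pairs of groups with 3 shared numbers, both in the nitrogen experiment, and in the rest 8 of 61 same-numbered pairs did so. With the replicate number as a block, DI19 in N-absent lost its call (-0.40, adjusted p = 0.06092), COR47 in N-absent and COR15B with nitrogen in Col-0 gained one, and no other call among the 8 genes changed.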
